A study of Homo sapiens with 4 samples.

Results

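SOX9 stands almost alone among protein-coding genes on its stretch of chromosome 17, and the open chromatin around it was described here from ATAC-seq peak lists of human pancreatic progenitor (PP) cells. ATAC-seq marks open chromatin as places where a transposase cuts and tags the DNA. The peaks of the 4 libraries were merged where they overlapped, and the merged regions lying between the end of KCNJ2, the nearest protein-coding gene upstream, and 500 kb beyond the end of SOX9 were taken (hg38, GENCODE release 44, chromosome 17, 70180045 to 72626416, 2.45 Mb). There were 112 such regions of 164301 in the genome. The rule used position only, and no accessibility value.

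The PP cells were derived from MEL1, an established human embryonic stem cell line, which the study's methods name as MEL1 INS GFP/W, with a GFP reporter at the insulin gene. Both groups were kept in EF6 medium, which holds B27 supplement, EGF, bFGF and the TGF-β receptor inhibitor 616452. One group received DMSO and the other 1 μM I-BET151 for 7 days. I-BET151 blocks the bromodomains of BET proteins, which bind acetylated histones and help transcription to proceed. Each group had 2 libraries of 50000 cells. The labels do not say that the 2 libraries of a group came from separate cultures, so the spread between them may be technical, and all cells came from 1 line grown in a dish.

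SOX9 encodes a transcription factor with an HMG box, the DNA-binding fold of the SOX family. In the embryonic pancreas it keeps progenitors in their state. It also acts in cartilage, in the testis and in the neural crest, and people with 1 damaged copy have campomelic dysplasia. The gene desert beside it holds enhancers that work over very long distances, and rearrangements far from the gene can disturb its expression in single tissues. An open region found by ATAC-seq may be an enhancer, a promoter, an insulator or none of these.

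Open chromatin at marker promoters, counted within 1000 bp of a gene start, was first compared with the cell label. Promoters of all 5 pancreatic progenitor markers (PDX1, NKX6-1, ONECUT1, FOXA2 and GATA6) were in at least 1 peak list and 3 of the 5 were in all 4. Over all 20033 protein-coding genes, 70.5% had a promoter region in some list and 50.4% in all 4. Promoters of the pluripotency genes POU5F1 and NANOG, of the endocrine genes NEUROG3 and INS, of the liver gene AFP, of the neural crest gene SOX10 and of the testis genes AMH and DMRT1 were in no list. Of the other markers, NEUROD1 was in the list of I-BET151 replicate 1 only, ALB in that of I-BET151 replicate 2 only, and the cartilage collagen gene COL2A1 in 3 lists.

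The libraries differed in depth and in length of list, and this touches every count below. The number of reads worked out from the genome-wide background was 38.7 and 36.6 M (megareads) in DMSO replicates 1 and 2 and 12.5 and 16.0 M in I-BET151 replicates 1 and 2. The lists held 82568, 38295, 84995 and 111324 peaks in that order. The read extension used by the peak caller was 200 bp in both libraries numbered 1, and 233 bp (DMSO) and 256 bp (I-BET151) in those numbered 2. The part of these differences in the results was not tested.

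The stretch between KCNJ2 and SOX9 was 1.94 Mb long, and its 59 regions lay at 30.4 per Mb. From the SOX9 start on, 0.505 Mb held 53 regions, which is 105 per Mb. Regions found in all 4 lists were also sparser upstream, with 7 (3.61 per Mb) against 11 (21.8 per Mb). The densest 100 kb, at 400 to 500 kb beyond the start, had 16 regions, and the 100 kb just upstream of the start had 12.

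**Figure D1:**
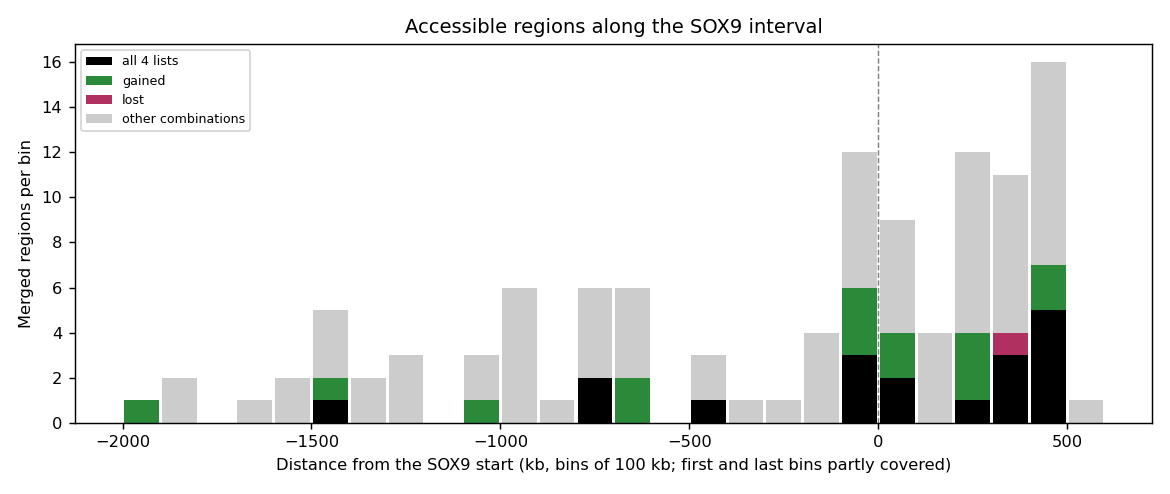
Merged regions per 100 kb (y axis) by distance from the SOX9 start (x axis, kb, upstream negative), split into those called in all 4 lists, gained (in both I-BET151 lists, no DMSO list), lost (in both DMSO lists, no I-BET151 list) and other combinations. The 3 bins from 200 to 500 kb downstream hold 12, 11 and 16 regions, and 3 upstream bins hold none.

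Upstream, the longest stretch without a peak in any list was 194 kb, from 1842 to 1648 kb upstream. The next were 155 kb (1252 to 1097 kb upstream), 121 kb (609 to 488 kb) and 110 kb (282 to 172 kb). Among 312 gaps of at least 1 Mb between neighbouring protein-coding genes, the median was 36.5 regions per Mb (quartiles 24.9 and 46.5), and 198 gaps were denser. For regions in all 4 lists the median gap had 3.04 per Mb, and 127 gaps were denser.

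Of the 21 annotated genes in the interval, SOX9 was the single protein-coding one, with 15 long noncoding RNAs (lncRNAs), 4 processed pseudogenes and 1 small nuclear RNA. Each region was placed by its summit. By that position, 17 of the 112 regions lay in an lncRNA exon, 52 in lncRNA introns, 42 were intergenic, and 1 lay inside SOX9. The SOX9 promoter region was counted under lncRNA introns, since its summit was 2 bp upstream of the start, but it also reached into SOX9. LINC00511, a long lncRNA gene downstream (72290091 to 72640472), held 40 regions up to the end of the interval at 72626416. Of these, 9 were in all 4 lists, where 15.6% of all regions were. ENSG00000288605 held 20 and SOX9-AS1, which runs antisense across the gene, held 18. ROCR, an lncRNA named for its part in making cartilage from stem cells, held 4, and CASC17 held 6.

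The sequence under the summits is shown for the regions to which the results return. They are 201 bases centred on the summit of the region's highest peak, read from the hg38 plus strand, with motif matches in capitals. The first 2 are the regions with the highest mean percentile over the 4 lists, the next 2 are downstream regions ranked high in I-BET151, and the last 3 are gained regions. The motifs searched on both strands were ACAANGG for SOX factors, TGTTTAC for FOXA, AGATAA for the GATA family, TATNGAT for ONECUT factors, CATNAATCA for PDX1 with its partner PBX, GTGGGAA for RBPJ, TGANTCA (the same on both strands) for AP-1 and the CTCF core consensus.
1459 kb upstream, chr17:70661476-70661676: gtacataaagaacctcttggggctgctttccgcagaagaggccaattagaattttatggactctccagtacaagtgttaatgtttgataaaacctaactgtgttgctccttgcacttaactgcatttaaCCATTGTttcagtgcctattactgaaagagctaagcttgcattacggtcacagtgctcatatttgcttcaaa
791 kb upstream, chr17:71329438-71329638: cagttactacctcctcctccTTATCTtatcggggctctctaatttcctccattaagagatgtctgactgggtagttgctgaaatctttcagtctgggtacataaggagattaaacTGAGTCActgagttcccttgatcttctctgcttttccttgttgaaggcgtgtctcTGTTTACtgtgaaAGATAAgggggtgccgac
300 kb downstream, chr17:72421417-72421617: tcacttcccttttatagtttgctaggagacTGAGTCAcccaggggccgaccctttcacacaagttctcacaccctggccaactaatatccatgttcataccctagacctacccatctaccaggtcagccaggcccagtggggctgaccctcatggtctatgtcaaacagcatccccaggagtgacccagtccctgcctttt
398 kb downstream, chr17:72519024-72519224: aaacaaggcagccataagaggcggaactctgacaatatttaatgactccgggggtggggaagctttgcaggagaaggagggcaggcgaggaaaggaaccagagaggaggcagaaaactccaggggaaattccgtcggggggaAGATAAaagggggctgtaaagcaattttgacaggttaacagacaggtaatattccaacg
65.4 kb upstream, gained, chr17:72055555-72055755: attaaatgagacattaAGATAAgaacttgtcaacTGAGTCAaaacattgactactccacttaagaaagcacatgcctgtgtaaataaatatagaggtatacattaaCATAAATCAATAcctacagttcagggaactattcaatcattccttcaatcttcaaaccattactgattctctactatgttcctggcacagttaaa
18.4 kb upstream, gained, chr17:72102481-72102681: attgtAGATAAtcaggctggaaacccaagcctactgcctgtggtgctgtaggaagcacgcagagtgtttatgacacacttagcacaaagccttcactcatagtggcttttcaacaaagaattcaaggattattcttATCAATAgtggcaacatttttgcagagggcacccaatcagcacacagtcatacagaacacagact
283 kb downstream, gained, chr17:72403952-72404152: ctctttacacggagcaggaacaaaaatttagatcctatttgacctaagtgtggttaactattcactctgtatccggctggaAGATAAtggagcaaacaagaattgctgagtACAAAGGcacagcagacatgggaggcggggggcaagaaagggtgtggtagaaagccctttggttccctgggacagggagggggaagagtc

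In the first sequence the capitals are a SOX match on the minus strand. The window 791 kb upstream held FOXA, AP-1 and GATA matches, the last on each strand. That 65.4 kb upstream held GATA and AP-1 matches and a PDX1 match that overlapped an ONECUT match, so the run of capitals there is both. Across the 112 windows, 55 held no match to any of these motifs, 42 held 1, 9 held 2, 5 held 3 and 1 held 4.

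GATA matches were in 22 of the 112 windows (19.6%, against 14.2% of all regions in the genome). SOX matches were in 17 (15.2% against 11.3%) and AP-1 matches in 17 (15.2% against 11.0%). ONECUT was in 9 (8.04% against 6.50%), RBPJ in 6 (5.36% against 4.86%), FOXA in 5 (4.46% against 4.57%) and PDX1 in 3 (2.68% against 1.37%). The CTCF core consensus was in 0 of the 112, against 1.86% of all regions. It was in 0 of the 15 gained regions described below, against 4.13% of the regions gained genome-wide. Shares this low rest on few windows. Matches are letters in these windows, and no binding was measured. The median GC content of the regions was 48.0% against 47.8% genome-wide, and the median length 379 bp against 405 bp.

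DMSO replicates 1 and 2 called 50 and 24 of the 112 regions, and I-BET151 replicates 1 and 2 called 50 and 83. The groups touched at 50. The mean was 37.0 ± 18.4 (SD, n = 2) in DMSO and 66.5 ± 23.3 (SD, n = 2) in I-BET151, a ratio of 1.80, or 2.77 without DMSO replicate 1. A two-sided exact permutation test gave p = 0.67, and with 2 libraries against 2 it cannot go below 0.33. Genome-wide the lists called 78671, 37658, 80816 and 111206 regions, a ratio of 1.65 (exact p = 0.33). As shares, 44.6%, 21.4%, 44.6% and 74.1% of the SOX9 regions were called, against 47.9%, 22.9%, 49.2% and 67.7% of all regions.

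Most of the regions were in few lists. A single list held 62 of the 112 (55.4%, against 51.8% of all regions). I-BET151 replicate 2 alone held 34 of these (30.4% of the 112, against 22.3% of all regions). DMSO replicate 1 alone held 16 (14.3% against 18.1%). I-BET151 replicate 1 alone held 10 (8.93% against 10.0%), and DMSO replicate 2 alone held 2 (1.79% against 1.33%). Another 23 were in 2 lists, 9 in 3 and 18 in all 4 (16.1%, against 15.6% of all regions). The single-list regions were weak in the median, with fold enrichment from 2.59 to 7.40. Their median was 3.29 and 3.09 in DMSO replicates 1 and 2 and 4.51 and 4.28 in I-BET151 replicates 1 and 2. The medians of all regions in those lists were 3.88, 4.09, 5.66 and 6.04 in the same order. Fold enrichment is the number of read fragments piled up at the summit over the local background of the same library, so it is not comparable in size between libraries of different depth.

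At the SOX9 promoter, 1 region was called in all 4 libraries (72120706 to 72121526), with its summit 2 bp upstream of the annotated start. Fold enrichment was 3.71 and 3.77 in DMSO and 6.25 and 7.07 in I-BET151. The I-BET151 values were both higher, as they were for 15 of the 18 regions around SOX9 found in all 4 lists and for 90.1% of the 25627 such regions in the genome. The summit pileup was 39 and 38 fragments in DMSO and 39 and 78 in I-BET151. By rank of fold enrichment among all regions of its own list (1 is the strongest) the promoter stood at 45656 and 22723 in DMSO and at 32038 and 42524 in I-BET151.

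Because list lengths differ, the rank is better read as a percentile, where 100 is the strongest. Among all regions of its own list the promoter region stood at 42.0 and 39.7 in DMSO and at 60.1 and 61.8 in I-BET151. The means were 40.8 and 60.9, a difference of 20.1 (exact permutation test, two-sided, p = 0.33, the smallest 2 against 2 can give). Among only the 25627 regions found in all 4 lists, the same region stood at 14.2 and 24.8 in DMSO and 24.9 and 16.7 in I-BET151. The means there were 19.5 ± 7.46 and 20.8 ± 5.80 (SD, n = 2), the difference was 1.23, and the groups overlapped. The difference of 20.1 was thus not seen once each library was ranked on the same regions. On that common scale, which ranks fold over local background, the SOX9 promoter was among the lower shared regions in every library. Its summit pileup was above the median of the 18 shared regions around SOX9 (28 and 26 in DMSO, 27.5 and 46.5 in I-BET151). The local background at its summit was 9.78 and 9.33 in DMSO and 5.40 and 10.2 in I-BET151.

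The tests of rank below use the common scale. The ranks were turned into normal scores, which run like standard deviations around the middle region, and fitted with limma over all 25627 shared regions with Benjamini-Hochberg adjustment. For the promoter the score difference of I-BET151 minus DMSO was 0.05 ± 0.38 (SE from limma, adjusted p = 0.954).

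The other region within 5 kb of the start lay in SOX9 intron 2 (72123086 to 72123639, summit 2.37 kb downstream), under a GATA match. Its fold enrichment was 4.22 and 3.69 in DMSO and 4.95 and 3.50 in I-BET151, and the groups overlapped. Pileup was 43 and 35 against 31 and 40 fragments. On the common scale it stood at 26.8 and 22.4 in DMSO and at 9.93 and 0.265 in I-BET151, both lower. The mean went from 24.6 ± 3.13 to 5.10 ± 6.83 (SD, n = 2), a difference of −19.5, and the score difference was −1.35 ± 0.46 (SE), which did not pass (limma adjusted p = 0.0911). Leaving out single libraries moved the score difference from −2.10 (without I-BET151 replicate 1, limma adjusted p = 0.000806) to −0.60 (without I-BET151 replicate 2, adjusted p = 0.435), with the lone library taken to vary like the other group. With log2 pileup per M reads, centred on each library's median, the difference was −0.65 (adjusted p = 0.146).

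None of the 18 shared regions passed the limma test in either direction, where 3.41% of all shared regions passed with higher rank in I-BET151 and 1.96% with lower rank. The lowest adjusted p was 0.0691. An unadjusted limma p under 0.05 was found for 5 of the 18 and for 6372 of all 25627 shared regions. The score was higher in I-BET151 for 10 and lower for 8, with a median difference of 0.12 against −0.03 over all shared regions. On the common percentile scale both I-BET151 libraries stood above both DMSO libraries for 6 of the 18 (27.1% of all shared regions) and below them for 4 (28.1%). With 18 regions these shares rest on few counts.

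**Figure D2:**
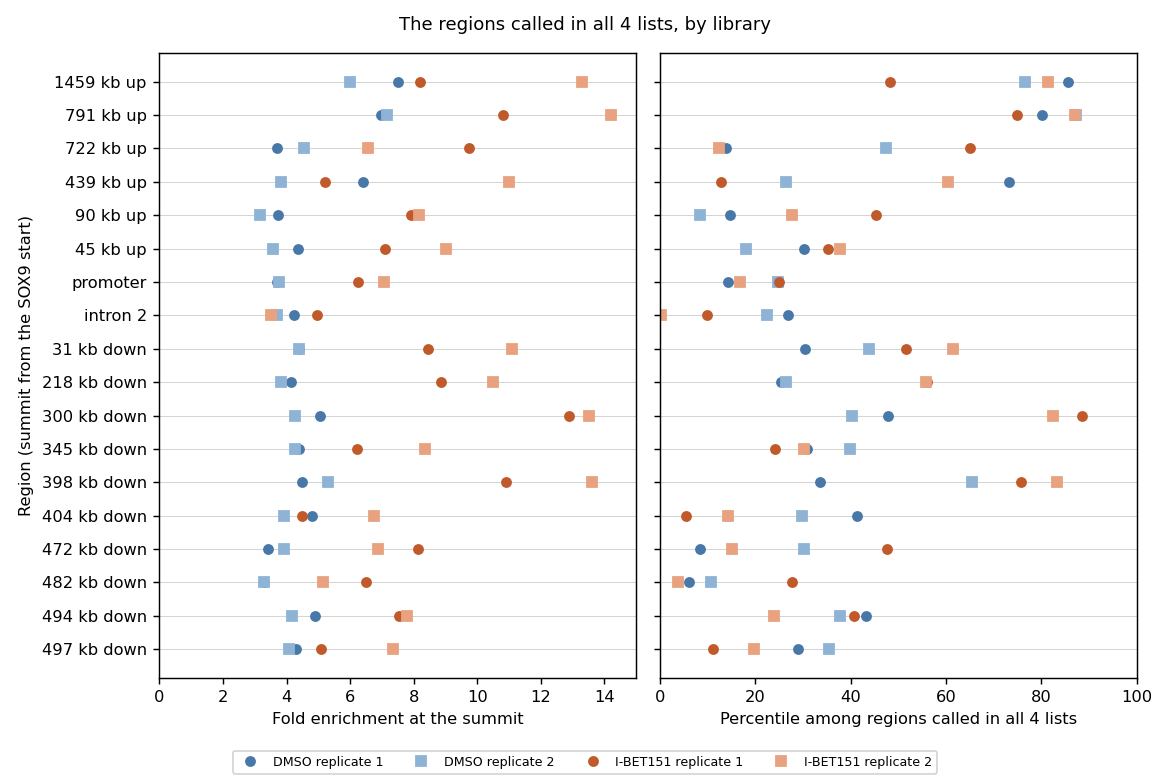
The 18 regions called in all 4 lists, from upstream to downstream (y axis), with fold enrichment at the summit (left) and percentile among all regions called in all 4 lists (right) as 1 point per library. Fold is higher in both I-BET151 libraries for 15 regions, while on the percentile scale the groups do not overlap for 6 regions higher and 4 lower in I-BET151, and the region 300 kb downstream moves from 47.8 and 40.2 to 88.6 and 82.4.

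By mean percentile over the 4 lists, a pair of upstream regions stood highest around SOX9. The regions 300 and 398 kb downstream had the higher fold enrichment in I-BET151 replicate 1. In summit pileup both upstream regions were below the SOX9 promoter in every library. The one 791 kb upstream (71329338 to 71330270, intergenic) had fold enrichment of 6.96 and 7.16 in DMSO and 10.8 and 14.2 in I-BET151. It stood at 80.1 and 87.3 in DMSO and 74.9 and 87.1 in I-BET151 on the common scale, overlapping between groups (score difference −0.09 ± 0.39 SE, limma adjusted p = 0.912). By rank in its own list it was 5308, 3395, 7355 and 3651 in the order DMSO replicates 1 and 2, then I-BET151 replicates 1 and 2. It was in the top 10% of each list, at percentiles 93.3, 91.0, 90.9 and 96.7 in the same order. The window shown above carries matches for FOXA, the pioneer factors of endoderm, and for GATA, whose family member GATA6 acts in pancreas formation.

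The other, 1459 kb upstream (70661245 to 70661950, intergenic), under the SOX match on the minus strand, had fold enrichment of 7.50 and 6.01 in DMSO and 8.19 and 13.3 in I-BET151. On the common scale it stood at 85.6 and 76.5 against 48.2 and 81.4, and I-BET151 replicate 1 was the low library (score difference −0.47 ± 0.41 SE, limma adjusted p = 0.509). Pileup was 28 and 24 fragments in DMSO and 18 and 44 in I-BET151. The 2 I-BET151 libraries lay further apart here than the groups did.

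Further upstream regions in all 4 lists lay at 722, 439, 90.3 and 44.8 kb. The region 439 kb upstream had fold enrichment of 6.40 and 3.83 in DMSO and 5.20 and 11.0 in I-BET151. The region 90.3 kb upstream (72030054 to 72031001), in an exon of LINC01152 and an intron of ROCR, had 3.73 and 3.17 against 7.93 and 8.16. It stood at 14.7 and 8.32 in DMSO and 45.3 and 27.7 in I-BET151 on the common scale, with no overlap, and did not pass (score difference 0.86 ± 0.39 SE, limma adjusted p = 0.183). On centred log2 pileup its difference was 0.01 (adjusted p = 0.992). The region 44.8 kb upstream, under an RBPJ match (RBPJ is the DNA-binding partner of Notch), had 4.37 and 3.56 against 7.11 and 9.02 and did not pass either (limma adjusted p = 0.58).

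Downstream, the region with the lowest adjusted p lay 300 kb from the SOX9 start (72421227 to 72421796), in an exon of LINC00511, under an AP-1 match. AP-1 motifs are bound by FOS and JUN proteins. Its fold enrichment was 5.05 and 4.28 in DMSO and 12.9 and 13.5 in I-BET151. It stood at 47.8 and 40.2 in DMSO and at 88.6 and 82.4 in I-BET151 on the common scale. Both I-BET151 values were far above both DMSO values, with a mean difference of 41.5, but the score difference of 1.22 ± 0.38 (SE) did not pass (limma adjusted p = 0.0691). The adjusted p was 0.0331 without I-BET151 replicate 2, with the lone library taken to vary like the other group, and 0.125 to 0.365 without each of the other libraries. On centred log2 pileup the difference was 0.18 (adjusted p = 0.585), and ranked by −log10 p the score difference was 0.55 (adjusted p = 0.371).

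The region 398 kb downstream (72518829 to 72519608, LINC00511 intron, GATA match) had the deepest pileup of the interval, 130 fragments in I-BET151 replicate 2, beside 50 in I-BET151 replicate 1 and 36 and 41 in DMSO. Fold enrichment was 4.48 and 5.29 in DMSO and 10.9 and 13.6 in I-BET151. It stood at 33.5 and 65.4 against 75.6 and 83.2 on the common scale (score difference 0.84 ± 0.41 SE, limma adjusted p = 0.209). DMSO replicate 1 was the low library, and the DMSO pair was wide apart.

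Its neighbour 404 kb downstream (72525273 to 72525958) went the other way in rank. Fold enrichment was 4.79 and 3.92 in DMSO and 4.47 and 6.76 in I-BET151, and the common percentile was 41.3 and 29.7 against 5.53 and 14.2. The score difference was −0.96 ± 0.39 (SE, limma adjusted p = 0.145). These 2 regions, both in LINC00511 and a few kb apart, thus had differences of opposite sign, neither past the threshold. On centred log2 pileup the region 404 kb downstream passed, with a difference of −1.22 (limma adjusted p = 0.0243).

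The region 218 kb downstream (72338882 to 72339572) had fold enrichment of 4.15 and 3.83 in DMSO and 8.86 and 10.5 in I-BET151 (limma adjusted p = 0.2). That 30.8 kb downstream (72151284 to 72152099), under a SOX match, had 4.38 and 4.38 against 8.46 and 11.1 (adjusted p = 0.44). On the common scale too both had the I-BET151 libraries above the DMSO libraries, at 56.0 and 55.8 against 25.3 and 26.4 for the first and 51.5 and 61.5 against 30.5 and 43.8 for the second. On centred log2 pileup the differences were 0.10 for the first and −0.36 for the second, and ranked by −log10 p the second was at −0.03, so its direction turned. The remaining 5 downstream regions, at 345, 472, 482, 494 and 497 kb, had fold enrichment between 3.28 and 8.36. On the common scale the region 345 kb downstream stood at 30.8 and 39.8 in DMSO and 24.0 and 30.2 in I-BET151, and that 497 kb downstream at 28.9 and 35.4 against 11.2 and 19.6. With intron 2 and the region 404 kb downstream, these were the 4 regions lower in both I-BET151 libraries.

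Gained regions, which had a peak in each I-BET151 library but in no DMSO library, numbered 15 of the 112 (13.4%), where 17% of all regions were gained. Upstream of SOX9 they were 8 of 59 (13.6%), and in all protein-coding gaps of at least 1 Mb they were 21.8% of 19299 regions. From the SOX9 start on they were 7 of 53 (13.2%). The count was 0 of 39 when each list was cut to the same number of peaks, against 9.22% of all regions. It was 25 with the libraries numbered 1 only (28.1% of all regions) and 62 with those numbered 2 only (48.6%). It was 49 without I-BET151 replicate 1 (39.3% of all regions) and 25 without I-BET151 replicate 2. In both settings the gained share of all regions was also higher than the 17% found with every library kept.

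The gained region with the highest lower value was 1912 kb upstream (70209225 to 70209662), the region nearest to the end of KCNJ2, a potassium channel gene. Its fold enrichment was 6.50 and 8.34 in the I-BET151 libraries. The next was 283 kb downstream (72403891 to 72404304, SOX and GATA matches) with 6.87 and 6.01, on a pileup of 17 and 29 fragments. The region 65.4 kb upstream, in a ROCR intron (72055165 to 72055843), had 6.73 and 5.84, on 22 and 21 fragments. The window of this last region, shown above, held matches to 4 of the motifs, the highest number among the 112.

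Of the other gained regions, that 648 kb upstream had fold enrichment of 5.61 and 6.75 and that 1097 kb upstream 7.28 and 5.56. A pair close together lay at 19.3 kb (3.72 and 4.84) and 18.4 kb upstream (4.44 and 3.63), in introns of SOX9-AS1, the second with GATA and ONECUT matches. ONECUT factors such as HNF6 act early in pancreas formation. The region 22.5 kb downstream had 4.16 and 8.96. The other 7 had values between 3.12 and 6.78.

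**Figure D3:**
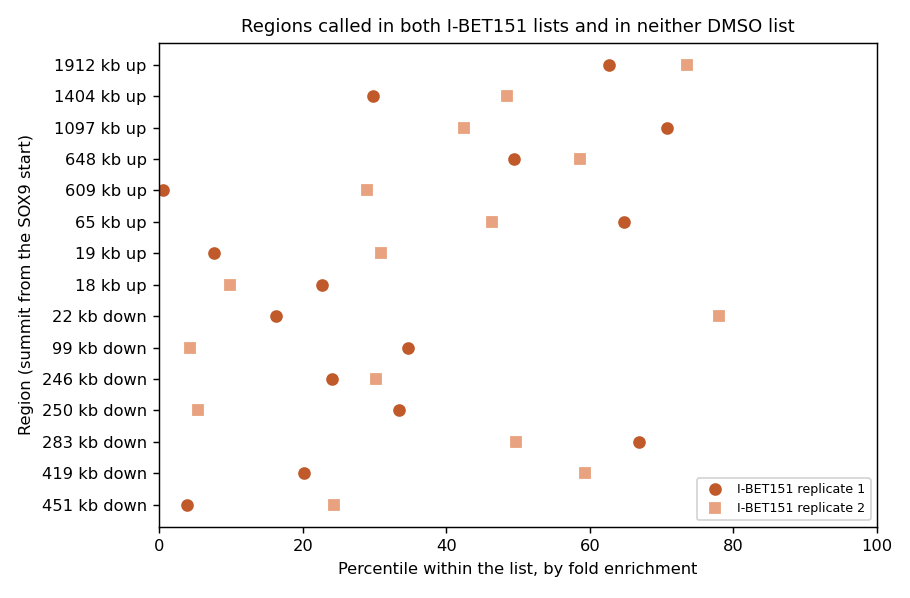
The 15 gained regions (y axis, by distance from the SOX9 start) with their percentile of fold enrichment among all regions of the list (x axis), 1 point per I-BET151 library. The medians are 29.8 and 42.4, and 8 of the 15 lie under 50 in both libraries.

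Most gained regions were weak peaks within their lists. Their percentiles in the list ran from 0.559 to 70.7 (median 29.8) in I-BET151 replicate 1 and from 4.31 to 78.0 (median 42.4) in replicate 2. A single one of the 15, that 1912 kb upstream, was above 50 in both. Their summit pileups were 5 to 22 and 9 to 29 fragments. A region missing from a list had no peak past the threshold of that library, which does not show that it was closed.

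The reverse pattern, a peak in each DMSO library but in no I-BET151 library, was found once (0.893%, where 2.37% of all regions were lost). The lost region was 332 kb downstream (72453249 to 72453590), in a LINC00511 intron, under a SOX match. Its fold enrichment was 4.12 and 3.37 on a pileup of 22 and 19 fragments. It was in the middle and lower parts of the DMSO lists, at percentiles 56.8 and 25.5. No region between KCNJ2 and SOX9 was lost, against 1.27% over all the gaps of at least 1 Mb. The interval's count of lost regions was 17 without DMSO replicate 2 (20.4% of all regions). It was 3 without DMSO replicate 1 (3.71%) and 3 without I-BET151 replicate 2 (4.46%).

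Among the 9 regions in 3 lists, a pair stood next to each other 1254 and 1253 kb upstream. The first (70866310 to 70866822; SOX, GATA and PDX1 matches) had fold enrichment of 4.70 in DMSO replicate 1 and 6.84 and 7.48 in I-BET151, and no call in DMSO replicate 2. The second had 5.19 and 4.30 in DMSO and 8.0 in I-BET151 replicate 2, and no call in I-BET151 replicate 1. The neighbours were thus missing from different libraries. The region 682 kb upstream had 5.50 in DMSO replicate 1 and 7.00 and 13.7 in I-BET151.

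The partners of SOX9 in pancreatic progenitors were read at their own promoters. Of the 9 genes listed (PDX1, NKX6-1, ONECUT1, FOXA2, GATA6, HES1, FGFR2, NEUROG3 and PTF1A), 7 had a promoter region in some list and 5 in all 4, and 0 of the 5 passed the limma test in either direction, with a median score difference of −0.24. The shares over all protein-coding genes were 70.5% and 50.4%. Over the 10092 protein-coding promoters in all 4 lists the median was −0.08, with 280 higher and 101 lower in I-BET151. PDX1, the regulator that marks the pancreatic bud, was gained, as were 1418 of the 20033 protein-coding promoters. It had fold enrichment of 4.90 and 5.20 in the I-BET151 libraries, at percentiles 35.3 and 37.3 of those lists, and no call in DMSO. NEUROG3, which starts the endocrine programme, and PTF1A, needed for the exocrine pancreas, were in no list.

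NKX6-1, a factor of the progenitor trunk, had fold enrichment of 5.11 and 5.25 in DMSO and 9.83 and 8.69 in I-BET151 (limma adjusted p = 0.835). FGFR2, a receptor for FGF signals that sustain progenitors, had 3.26 and 3.96 against 6.79 and 9.05 (adjusted p = 0.357). HES1, a Notch target, had 3.33 and 3.29 against 3.88 and 4.17 (adjusted p = 0.18). These promoters, like that of SOX9 and 90.1% of all shared regions, were higher in fold in both I-BET151 libraries. None had a change in rank past the threshold. On the common scale HES1 was lower, at 6.83 and 10.9 in DMSO and 1.83 and 1.00 in I-BET151. GATA6 was lower too, at 53.0 and 57.6 against 27.6 and 14.4 (limma adjusted p = 0.138). FGFR2 was higher, at 5.84 and 30.8 against 31.5 and 38.1, and for NKX6-1 and FOXA2 the groups overlapped.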

How the data were processed

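ATAC-seq was made from PP cells with DMSO or I-BET151, with groups and replicate numbers as the sample titles give them. The authors aligned reads to hg38 with Bowtie2 (2.2.5) and called peaks with MACS2 (2.1.2) in each library on its own, without an input control. Each deposited peak list holds a score, the fold enrichment (a ratio, summit pileup over local background), −log10 p and −log10 q values, and the summit position. The lowest −log10 q was 1.30 to 1.33, the level of a q-value of 0.05. The study's methods state a p threshold of 1e-05 and an extension of 200 bp, but the lists held −log10 p values down to 2.95, and 233 and 256 bp were found in the libraries numbered 2.

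Peaks were merged with an overlap of at least 1 bp, and the highest fold of a region in each list was kept. Pileup was recovered from fold and p, and reads from the background with a genome size of 2700000000. Ranks among regions in all 4 lists were made into normal scores and fitted with limma (3.58.1, R 4.3.3), and the script was tested on simulated data. Single values used the exact permutation test (scipy 1.17.1). The adjusted p threshold was 0.05. Motifs were searched within 100 bp of the summit, and gene features came from GENCODE release 44.

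Members, gene lists and motifs were chosen with earlier results of these data known, and 1 gene of the lists is not reported here. Named regions were those within 5 kb of SOX9, the 5 highest by mean percentile in all lists, the 5 strongest gained, the lost ones and that nearest KCNJ2. Other regions were named after their values were seen. Alternatives were other peak thresholds, equal list lengths, coverage of at least 50%, another ranked measure, a replicate block and leaving out each library.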

Additional observations from a re-analysis of the deposited data

How the results depend on the processing

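The ratio of regions called per list kept its direction under all 8 alternatives, at 1.04 with equal numbers of peaks and 1.33 to 2.77 with single libraries left out. Gained regions numbered 9 of 47 with −log10 p of at least 10, against 23.3% of all regions. They numbered 0 of 39 with equal numbers of peaks (the 38295 strongest of each list), against 9.22% of all regions. With single libraries left out they numbered 15 to 49 (18.0% to 39.3% of all regions), the highest without I-BET151 replicate 1. Lost regions numbered 0 and 3 under those first 2 settings (0.269% and 5.87% of all regions). With single libraries left out they numbered 1 to 17 (2.47% to 20.4%), the highest without DMSO replicate 2. The number higher in rank was 0 to 1 and lower in rank 0 to 1 with single libraries left out (300 kb downstream without I-BET151 replicate 2, SOX9 intron 2 without I-BET151 replicate 1). With log2 pileup per M reads, centred, 1 was lower (404 kb downstream, limma adjusted p = 0.0243), and genome-wide calls went from 875 higher and 503 lower to 191 and 1245. Ranked by −log10 p, the genome-wide calls were 8 and 27. The promoter's difference in list percentile was 11.4 when ranked by −log10 p, 1.23 among shared regions (chosen after seeing the data) and 19.0 to 21.3 with single libraries left out. Apart from the pairings, other settings kept each of these results on its side of the threshold or within 1.5 times its count.

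The deviations of libraries with the same number correlated at −0.14, so the numbers were not read as pairs, although the read extension was 200 bp in both libraries numbered 1. With the replicate block, 0 regions were higher and 0 lower and the promoter's difference stayed 20.1. The replicate 1 pair alone gave 25 gained and 25 lost (28.1% and 26.8% of all regions). The replicate 2 pair gave 62 gained and 3 lost (48.6% and 3.84%). A crossed replicate block, chosen after seeing the data, gave 1 higher and 1 lower.

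The I-BET151 libraries held 12.5 and 16.0 M reads against 38.7 and 36.6, and pileups of 5 to 22 fragments limit what the gained regions can show.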

Other observations

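The promoters of the other SOX genes behaved in several ways. Of the 9 listed, 7 had a promoter region in some list and 6 in all 4, where 70.5% and 50.4% of all 20033 protein-coding genes did. SOX4, which acts in endocrine differentiation, was the single member to pass the limma test, at percentiles 60.7 and 75.8 in DMSO and 19.8 and 14.3 in I-BET151 among shared regions (score difference −1.44 ± 0.38 SE, adjusted p = 0.0425), where 101 of 10092 protein-coding promoters passed in that direction. On the same scale SOX6 stood at 94.7 and 96.4 in DMSO and 87.1 and 96.0 in I-BET151, and SOX2 at 68.4 and 78.0 against 68.6 and 64.7. SOX8, the close relative of SOX9, was gained with fold enrichment of 3.51 and 6.64, at percentiles 2.63 and 57.1 of the I-BET151 lists. Over all 20033 protein-coding genes, 1418 promoters were gained. SOX10 and SOX18 were in no list. The median score difference of the 6 was −0.23, against −0.08 over all protein-coding promoters.

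The promoters most like that of SOX9 over the 4 list percentiles, among 10092 genes, were those of CCDC153 (Euclidean distance 2.76 percentile points), AHCY (4.78), C19orf33 (5.09), DYNC1H1 (5.52) and SMC1B (6.31).

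Scaled to reads per library, summit pileup of the 18 shared regions around SOX9 was higher in I-BET151 by a median of 1.52 on the log2 scale in the libraries numbered 1 and 2.04 in those numbered 2. Over all shared regions with a recovered pileup the medians were 1.57 and 2.25. The scaling divides by the number of reads, which differed between the groups, and its part in these values was not tested.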
